A study of Mus musculus with 58 samples.

Results

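Rn7sk, Rpph1, Rmrp, Gm26917 and Gm42418 are non-coding transcripts with high counts in these mouse retina libraries. The 5 comprise 3 structural small RNAs and 2 loci in a ribosomal RNA repeat. They were taken from the gene count table by their symbols, which had been chosen by earlier results on these same counts, outlying single libraries among them. The table held 52459 symbols, and all 5 members were among the 19120 genes that counted as expressed, with a median above 4 normalized counts. The exact values behind the choice were not recorded, so levels in single libraries and the spread between libraries are described here without a test.

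The series measured retinal RNA around the clock in heterozygous male Ins2Akita mice, whose mutant insulin gene makes them hyperglycemic, and in their male wild-type littermates as controls. All animals were 4 months old and lived under 12 h light and 12 h dark. Retinas were taken after perfusion with cold saline at Zeitgeber time (ZT) 1, 5, 9, 13, 17 and 21, where ZT0 is lights on, and the night points were handled under dim red light. Total RNA was depleted of ribosomal RNA by the RiboErase method and sequenced. There were 30 control libraries (5, 6, 5, 5, 5 and 4 from ZT1 to ZT21) and 28 diabetic libraries (5, 5, 5, 4, 4 and 5). The Ins2Akita mutation misfolds proinsulin in pancreatic beta cells, so the groups differ in a systemic disease. In whole retinas, fewer cells of a type and less RNA per cell cannot be told apart.

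7SK RNA, made from Rn7sk by RNA polymerase III, holds the elongation factor P-TEFb inactive together with HEXIM and LARP7 proteins and so restrains RNA polymerase II. Rpph1 encodes the RNA of RNase P, which trims the 5′ end of transfer RNA precursors, and Rmrp encodes the RNA of RNase MRP, a related enzyme that cuts precursor ribosomal RNA. Both enzymes share most of their protein subunits. The precursor ribosomal RNA itself is made by RNA polymerase I and cut into 18S, 5.8S and 28S RNA, most of which RiboErase is meant to remove.

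The 3 small RNAs are short, single-exon transcripts in the Gencode M21 annotation of GRCm38, and their sequences are shown for the HEXIM motifs of Rn7sk and for the runs that the related RNAs Rpph1 and Rmrp share. Rn7sk lies on the minus strand of chr9:78175303-78175633 and is 331 nt long with 58% G and C. Its capitals mark 3 GATC motifs (GAUC in the RNA) at positions 13, 42 and 64, the motif that HEXIM proteins are known to bind in the 5′ hairpin. Rpph1 lies on the minus strand of chr14:50807449-50807767 (319 nt, 67.1% G and C) and Rmrp on the minus strand of chr4:43492788-43493058 (271 nt, 64.2% G and C). Their capitals mark the runs of 9 bases that are the longest the pair shares. Rmrp is shown whole, and Rn7sk and Rpph1 to position 300.
Rn7sk: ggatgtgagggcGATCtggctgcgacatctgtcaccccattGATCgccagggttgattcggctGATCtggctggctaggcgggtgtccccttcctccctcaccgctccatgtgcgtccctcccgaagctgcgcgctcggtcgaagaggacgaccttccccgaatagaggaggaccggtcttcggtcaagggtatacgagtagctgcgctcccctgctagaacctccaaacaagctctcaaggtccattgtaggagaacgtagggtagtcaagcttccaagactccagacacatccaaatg
Rpph1: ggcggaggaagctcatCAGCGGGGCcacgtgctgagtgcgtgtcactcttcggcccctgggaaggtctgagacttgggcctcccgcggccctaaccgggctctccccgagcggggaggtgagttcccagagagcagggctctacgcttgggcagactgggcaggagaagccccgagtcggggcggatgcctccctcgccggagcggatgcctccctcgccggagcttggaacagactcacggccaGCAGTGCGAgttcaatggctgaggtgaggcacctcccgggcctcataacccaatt
Rmrp: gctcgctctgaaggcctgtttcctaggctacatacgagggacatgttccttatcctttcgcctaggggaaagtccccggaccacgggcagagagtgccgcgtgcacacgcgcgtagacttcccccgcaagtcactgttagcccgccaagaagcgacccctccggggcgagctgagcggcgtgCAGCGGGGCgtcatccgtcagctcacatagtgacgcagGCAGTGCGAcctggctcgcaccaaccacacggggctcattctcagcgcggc

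Other genes share sequence with these transcripts. Rpph1 overlaps an exon of Ccnb1ip1 on the same strand by 233 bases and starts 73 bases from Parp2, and Rmrp, which has 2 Gencode entries, overlaps Ccdc107 on the other strand by 164 bases. The sequence of 5 other genes matched Rn7sk at 95% identity or more, over 233 to 241 bases. Reads from such stretches cannot be assigned with certainty, and the strand setting of the counting is not given in the sources used here.

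Gm26917 and Gm42418 follow each other on the plus strand of chromosome 17 and are annotated as lincRNAs, but their place is that of a ribosomal RNA repeat. Gm26917 (chr17:39843013-39846341, 3329 bases, 69.1% G and C) ends 12 bases before a RefSeq copy of 18S, Rn18s-rs5 (chr17:39846354-39848202). Gm42418 (chr17:39846958-39848788, 1831 bases, 60.2% G and C) begins 604 bases into that 18S, holds 1245 bases of it and runs on for 586 bases after its end. AY036118 and CT010467.1 are annotated on the opposite strand of the same stretch. AY036118 had no count in any library, and CT010467.1 had a median of 348 normalized counts against 56700 for Gm42418. The sequences show the 18S end inside Gm42418, with 60 bases of 18S in capitals and the next 60 in lower case, and the last 120 bases of Gm26917 before the 18S start.
Gm42418: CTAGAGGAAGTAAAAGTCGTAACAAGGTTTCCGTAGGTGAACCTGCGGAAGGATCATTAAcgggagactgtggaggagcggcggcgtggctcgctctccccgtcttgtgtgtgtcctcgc
Gm26917: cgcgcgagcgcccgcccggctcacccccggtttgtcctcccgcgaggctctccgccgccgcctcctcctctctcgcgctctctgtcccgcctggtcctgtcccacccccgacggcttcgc

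Libraries held 7773117 to 22147398 counted reads, and none of 113 pairs of replicates was alike enough to be 1 library deposited again (chi-square at least 1.94 times its degrees of freedom). Of the retinal cell types, 5 cone markers summed to 9981 to 12779 normalized counts and 4 Muller glia markers to 32507 to 47828, while the 5 blood markers had a median sum of 6.02. Lens genes had a median sum of 26.7 but were high in a few control libraries, up to 43635 in control ZT1 replicate 6, with control ZT17 replicate 5 ranked 3 (28966), with Lim2 at 0 throughout. One library stood apart for the members. In diabetic ZT13 replicate 5 the pigment epithelium sum was the highest of the 58 libraries (5312, median 2081), while the cone sum was 10226 (median 11348) and the Muller glia sum 41220 (median 40615). The sum of the mitochondrial ribosomal RNAs was also highest there (18552, median 2250), and blood markers summed to 142. Results that rest on this library are given with and without it.

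The members were among the genes with the most counted reads after depletion of ribosomal RNA, which need not be their order in the retina. By median normalized count Gm26917 ranked 2 of all genes (329038), Rn7sk ranked 3 (216176), Gm42418 ranked 9 (56700), Rpph1 ranked 12 (44830) and Rmrp ranked 70 (13529). Together they took a median of 4.72% of counted reads, from 3.10% in control ZT9 replicate 3 to 11.6% in diabetic ZT13 replicate 5. Per kilobase of exon the order changed. Rn7sk had the highest level per kilobase of the 5 in 58 of 58 libraries (median 653101 normalized counts per kb). Rpph1 followed with 140533 per kb and was above Gm26917 (98840 per kb) in 51 libraries. Gm26917 was above Rmrp (48147 per kb, over the longer Gencode entry of 281 bases) in 50 libraries, and Rmrp was above Gm42418 (30967 per kb) in 52.

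The libraries differed widely in these RNAs, more so for the small RNAs than for the ribosomal loci. The coefficient of variation over the 58 libraries was 70.0% for Rmrp, 53.8% for Rpph1 and 37.1% for Rn7sk, against 33.5% for Gm42418 and 23.6% for Gm26917. All 5 values lay at or above percentile 99.0 of the 3247 genes with a mean of at least 1000 normalized counts. Among all expressed genes they lay at percentile 67.1 for Gm26917, 80.5 for Gm42418, 84.3 for Rn7sk, 96.8 for Rpph1 and 99.5 for Rmrp. As outlying libraries were known when the genes were chosen, these percentiles are a description only. Rn7sk ranged from 131862 to 696907 normalized counts, 5.29-fold, and Rmrp from 5909 to 85149, 14.4-fold. Without diabetic ZT13 replicate 5 the coefficients fell to 57.8% for Rmrp, 43.5% for Rpph1, 28.1% for Rn7sk, 23.5% for Gm42418 and 19.99% for Gm26917.

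Diabetic ZT13 replicate 5 had the highest count of the series for each member. Rn7sk stood at 696907 there, 3.45-fold the mean of the other 3 diabetic ZT13 libraries, Rpph1 at 193660 (4.20-fold) and Rmrp at 85149 (5.27-fold). Gm26917 was raised less, at 695234 (1.98-fold), and Gm42418 stood at 175362 (2.93-fold). Gm26917 over Gm42418 was 3.96 in this library, the lowest ratio of the 58 (median 5.78). Among the other high libraries, control ZT17 replicate 3 had Rn7sk at 415280 and Gm26917 at 500306, and diabetic ZT17 replicate 3 had 368393 and 615004. Control ZT17 replicate 5, one of the libraries with lens genes, had Rn7sk at 402390, Rmrp at 43843 and Gm26917 at 388679, and the part of lens content in this was not tested. Control ZT17 replicate 1 was high in the small RNAs alone, with Rn7sk at 356878 and Rpph1 at 95878 but Gm26917 at 321963, just under the median.

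Other short RNAs were also high in diabetic ZT13 replicate 5. Of 40 further genes with exons under 400 bases in all and a mean of at least 50 counts, 36 were above the mean of the other 3 libraries of the group, with a median log2 difference of 0.97, where the median of 12948 genes was -0.02. Scarna6 and Scarna13, which guide modification of spliceosomal RNAs, were 6.59-fold and 4.04-fold higher, and Snord17, a box C/D small nucleolar RNA, 5.19-fold. Rny1 and Rny3, the Y RNAs of Ro particles, were 2.99-fold and 3.08-fold higher. The mitochondrial ribosomal RNA mt-Rnr1 was 4.68-fold higher and mt-Rnr2 2.59-fold. Long nuclear RNAs differed less, with Malat1 at 0.970-fold, Neat1 at 1.22-fold and a median log2 difference of 0.09 over 6 of them. The 8 pigment epithelium markers, 6 of which could be compared, had a median log2 difference of 0.95, and the part of cell content or RNA quality in the library's values was not tested.

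**Figure D1:**
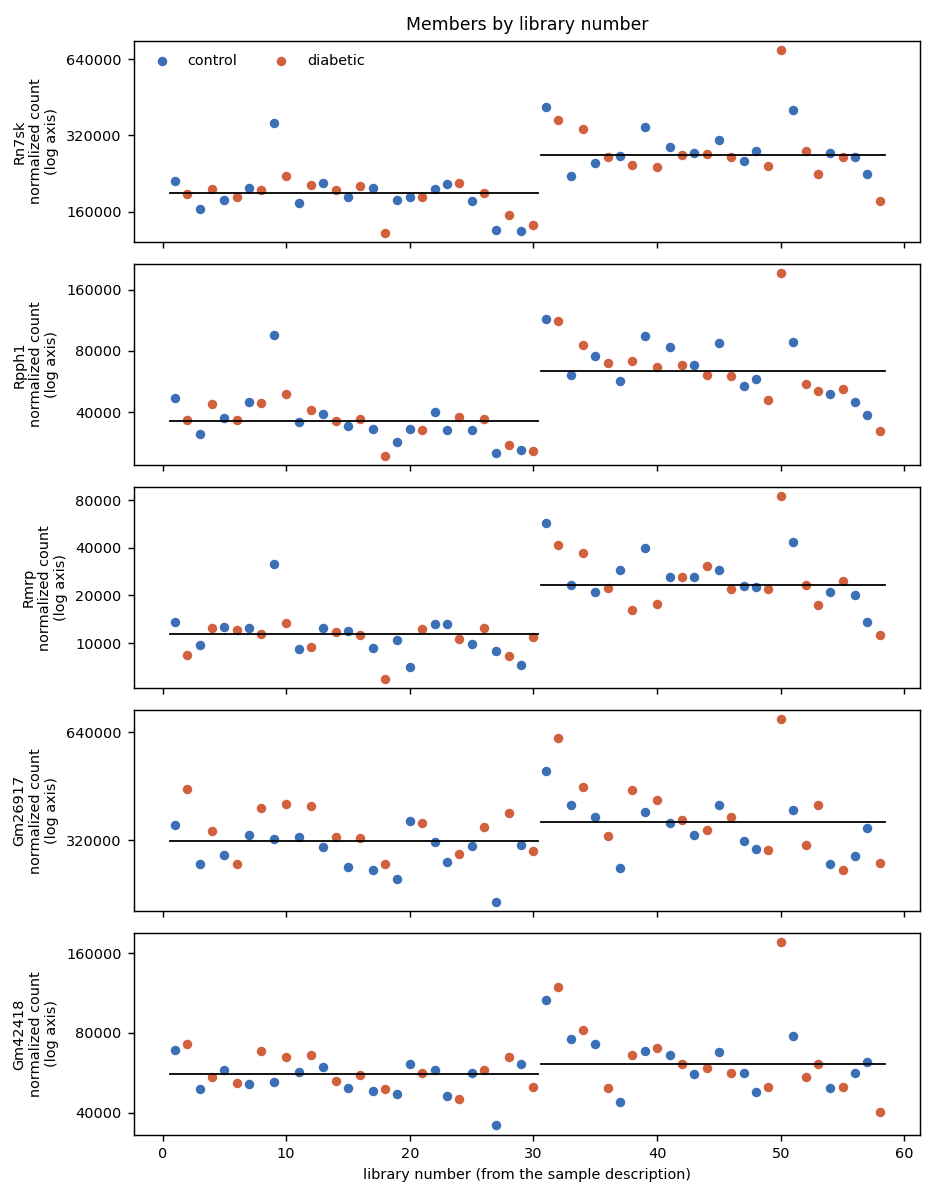
Normalized counts (log axis) of the 5 members in each of the 58 libraries, in the order of the library number, with control in blue and diabetic in red and lines at the medians of libraries 1 to 30 and 31 to 58. Rn7sk, Rpph1 and Rmrp step up between libraries 30 and 31, and diabetic ZT13 replicate 5 is the highest point in every panel.

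The small RNAs were higher in the later libraries, with a step between libraries 30 and 31. Each sample description carries a library number from 1 to 58, which runs through the replicates rather than the conditions, so that both genotypes and all time points occur early and late, though not evenly. Of the ZT17 libraries, 3 of 5 control and 3 of 4 diabetic ones are numbered above 30. The median of libraries 31 to 58 over that of libraries 1 to 30 was 1.41 for Rn7sk (267452 and 189319), 1.77 for Rpph1 (64010 and 36225) and 2.06 for Rmrp (23406 and 11381). It was 1.13 for Gm26917 and 1.09 for Gm42418. For the small RNAs these ratios lay at percentiles 99.71, 99.93 and 99.96 of the genes with a mean of at least 50 counts. The break at library 30 was read from the values, so no test was made of it. Within libraries 1 to 29 and 30 to 58, deviations from group means correlated with the number at r = -0.23 and 0.10 for Rn7sk. The values were -0.46 and -0.15 for Rpph1, and -0.10 and -0.07 for Rmrp. The last libraries, 57 and 58, had Rpph1 at 38798 and 32188, near the early median.

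Control ZT17 replicate 1 was the early exception. Leaving it aside, 26 of the 28 later libraries were above every earlier library in Rn7sk, 23 in Rpph1 and 27 in Rmrp, against 4 in Gm26917 and 7 in Gm42418. Short RNAs that were not members moved in part with the same order. Of the 40 other genes with exons under 400 bases, 32 had a higher median in libraries 31 to 58, with a median log2 difference of 0.26, where it was 0.00 over 12948 genes. Among named RNAs, the ratio was 2.16 for Scarna13, 1.96 for Rnu11, 1.90 for Snord17 and 1.76 for Rny1, but 0.965 for Scarna2 and 1.03 for Rny3. Malat1 had a ratio of 0.944, and mt-Rnr2 went the other way with 0.455. What the library number stands for beyond an order is not stated in the labels, and its part in the other results was checked by fits within libraries 1 to 29 and 30 to 58.

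**Figure D2:**
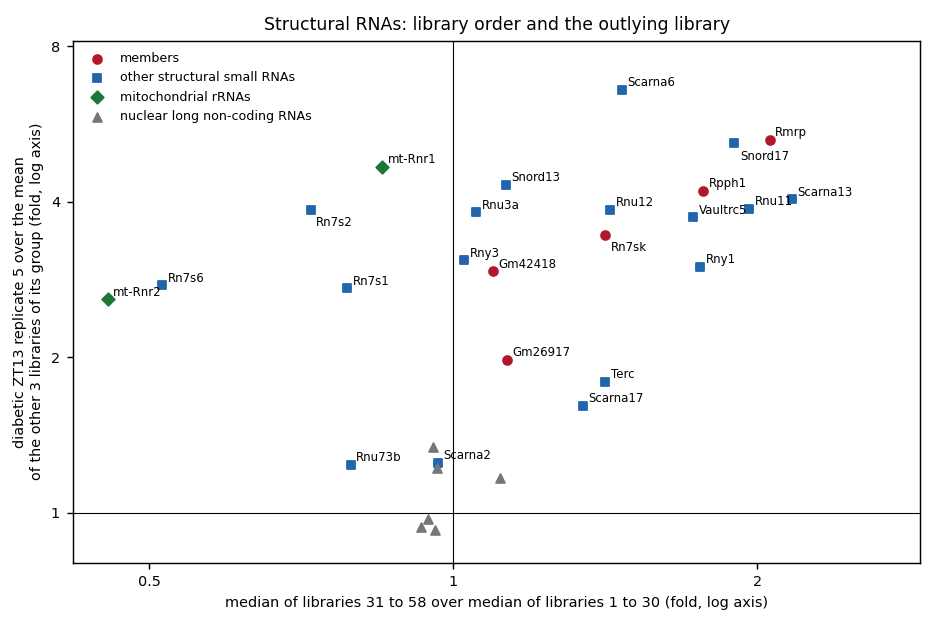
Each point is a gene, with the fold of later over earlier libraries on the x axis and the fold of diabetic ZT13 replicate 5 over the mean of the other 3 libraries of its group on the y axis, both log axes. Rmrp, Rpph1, Snord17 and Scarna13 are high on both, the mitochondrial ribosomal RNAs only on the y axis, and the nuclear long non-coding RNAs lie near 1 on both.

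Within groups, the members formed 2 blocks that followed their class. Log2 counts were taken relative to the mean of each genotype and time point and compared over the 58 libraries in 10 pairs. Pearson's r was 0.94 for Rn7sk with Rpph1, 0.94 for Rn7sk with Rmrp and 0.92 for Rpph1 with Rmrp, with Spearman's coefficients of 0.93, 0.95 and 0.93. Gm26917 and Gm42418 gave r = 0.94 and a Spearman coefficient of 0.92. Each of these 4 pairs had an adjusted permutation p of 1.2e-05 for r (p = 1e-05, the smallest that 100000 permutations can give) and 2.5e-05 for Spearman's coefficient. The relations held within libraries 1 to 29 (r of 0.83 to 0.89) and within 30 to 58 (0.90 to 0.95). They also held without the 2 libraries farthest from the median of the first gene (0.90 to 0.95), and without diabetic ZT13 replicate 5 (0.91 to 0.94). As outlying libraries were known when the genes were chosen, these p-values are not independent evidence.

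Between the blocks the relation depended on the libraries. The 6 pairs of a small RNA with a ribosomal locus had r of 0.48 to 0.67 over all libraries, with adjusted permutation p of 1.2e-05 to 0.00025, and Spearman coefficients of 0.36 to 0.56. Within libraries 1 to 29, however, r was -0.02 to 0.24, and within libraries 30 to 58 it was 0.67 to 0.83, or 0.58 to 0.79 without diabetic ZT13 replicate 5. Library 30, diabetic ZT13 replicate 3, was low in all 5 members and bears on this split. With the split placed after it, r was 0.08 to 0.39 within libraries 1 to 30, 0.60 to 0.82 within 31 to 58, and 0.47 to 0.76 within 31 to 58 without diabetic ZT13 replicate 5. The relation between the blocks was thus weak or absent in the earlier libraries under either split.

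**Figure D3:**
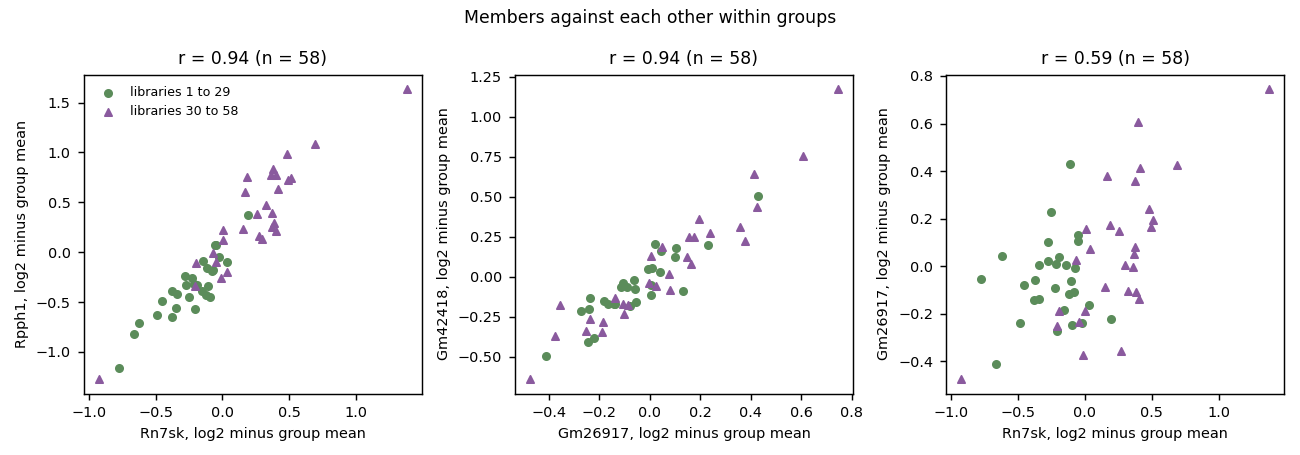
Log2 normalized count of 1 member against another after subtracting the group mean, for libraries 1 to 29 (circles) and 30 to 58 (triangles). Rn7sk and Rpph1, and Gm26917 and Gm42418, lie along a line in both sets of libraries, while Rn7sk and Gm26917 (r = 0.59) are spread in libraries 1 to 29 (r = 0.11) and not in 30 to 58 (r = 0.72).

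The genes most like each member followed the same blocks. Of 12947 genes, Rn7sk was nearest to Rpph1, Rmrp and Snord17 (r = 0.91), and Rmrp to Snord17 (0.94), Rn7sk and Snora73b (0.93), a pair of small nucleolar RNAs. Rpph1 was nearest to Rn7sk, Rmrp and the histone gene Hist1h4d (0.91). Among the nearest to Gm26917 were Gm42418 and the protein-coding gene Gpr153 (0.89), and to Gm42418 they were Gm26917 and Syngr1 (0.85). These likenesses are over 58 libraries of whole retina that share depth and cell content.

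Diabetes had no effect on the members that passed the test over all time points. Of 19120 genes, 2.99% were called at an adjusted p under 0.05 by edgeR's quasi-likelihood test, and 0 of the 5 members were. Rn7sk averaged 237849 ± 72890 (SD, n = 30) in control and 240282 ± 104415 (n = 28) in diabetic libraries, a log2 difference of 0.01 ± 0.12 (SE). The differences were 0.05 ± 0.17 for Rpph1 and -0.00 ± 0.21 for Rmrp. Without diabetic ZT13 replicate 5 they were -0.09, -0.10 and -0.20. The adjusted p of the 3 small RNAs, from edgeR, lay between 0.948 and 0.997.

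Gm26917 had the lowest p of the members. Its control libraries ranged from 214646 to 500306 with a median of 316972, and its diabetic libraries from 264497 to 695234 with a median of 352762, so that the groups overlapped over most of their range. The means were 323365 ± 57246 (SD, n = 30) and 372486 ± 96907 (n = 28), a log2 difference of 0.20 ± 0.07 (SE). The edgeR p was 0.00814, and 15.5% of all genes passed 0.05 unadjusted. After Benjamini-Hochberg adjustment it was 0.136, or 0.0602 to 0.226 with single libraries left out, the highest without diabetic ZT13 replicate 5 (log2 difference 0.16). The mean was higher in diabetic libraries at 6 of 6 time points, but at ZT1 the log2 difference was 0.02 ± 0.17 (SE). That ZT1 value ran from -0.11 to 0.08 with single libraries left out, and was -0.25 within libraries 30 to 58. How many of all genes kept 1 direction was not counted. Over all time points the log2 difference was 0.23 within libraries 1 to 29 and 0.15 within 30 to 58. Gm42418 differed by 0.13 ± 0.10 (adjusted p = 0.58 by edgeR), and by 0.04 without diabetic ZT13 replicate 5.

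At single time points the largest differences fell at ZT13, and they came with diabetic ZT13 replicate 5. Rn7sk had 198048, 177772, 133466, 287235 and 271758 normalized counts in control replicates 1 to 5, and 195400, 141216, 268680 and 696907 in diabetic replicates 1, 3, 4 and 5. Gm26917 had 330172, 249577, 311043, 356256 and 274228 in the controls, and 392221, 298476, 363748 and 695234 in the diabetic libraries. Only diabetic replicate 5 lay far above the controls, and the groups overlapped for every member. The log2 difference was 0.61 ± 0.27 (SE) for Rn7sk, 0.84 ± 0.39 for Rpph1 and 1.11 ± 0.49 for Rmrp. It was 0.53 ± 0.17 for Gm26917 and 0.70 ± 0.22 for Gm42418.

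By edgeR the unadjusted p at ZT13 was 0.00291 to 0.037 and the adjusted p 0.809 to 1, so 0 members were called, and 0% of all genes were. At an unadjusted p under 0.05 there were 852 genes (4.46%) by edgeR, and DESeq2 called 1 gene after adjustment. Without diabetic ZT13 replicate 5 the differences were -0.08 for Rn7sk, -0.00 for Rpph1, 0.07 for Rmrp, 0.21 for Gm26917 and 0.13 for Gm42418, with edgeR p from 0.212 to 0.99.

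At the other 5 time points no member was called, with edgeR p from 0.114 to 0.963, where 0.0105%, 0.0209%, 0.00523%, 0.167% and 0% of genes were called at ZT1, ZT5, ZT9, ZT17 and ZT21. At an unadjusted p under 0.05 the same time points had 5.5%, 6.15%, 4.49%, 8.82% and 4.67% of genes and 0 members. The log2 differences lay between -0.51 ± 0.47 (SE), for Rmrp at ZT9, and 0.25 ± 0.16, for Gm26917 at ZT5. Without control ZT9 replicate 4 the ZT9 value of Rmrp was -0.02. The control and diabetic groups overlapped for each member at each time point. From ZT1 to ZT21, 0.91%, 1.1%, 0.774%, 1.07%, 1.97% and 2.23% of all genes did not overlap.

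**Figure D4:**
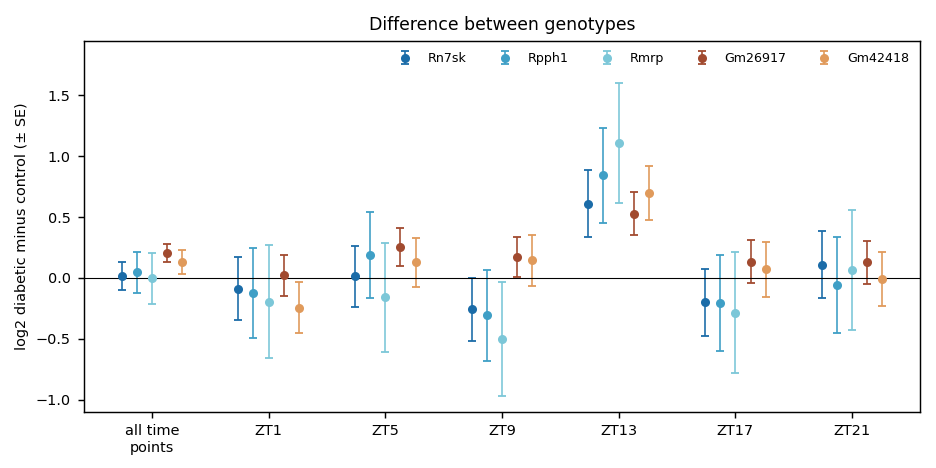
Log2 difference of diabetic minus control, with its standard error, for each member over all time points and at each ZT, from edgeR. The differences are largest at ZT13, where all 5 members are at 0.53 to 1.11 with diabetic ZT13 replicate 5 included, and over all time points Gm26917 is at 0.20.

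By time of day, the group mean of each member was highest at ZT17 in controls. In diabetic retinas it was highest at ZT13 with replicate 5 included, and at ZT17 without that library. The ZT17 means of Gm26917 and Gm42418 include the replicates numbered 3, at 500306 and 106258 in control and 615004 and 119001 in diabetic libraries. By the median, control Gm26917 and Gm42418 were highest at ZT21 (363021 and 62688, against 361843 and 61199 at ZT17). With all diabetic libraries, the median of Gm26917 was highest at ZT21 (397111) and that of Gm42418 at ZT13 (64742). The ZT17 means of the small RNAs include a larger share of libraries numbered above 30, in which these RNAs were higher. Time of day over both genotypes was also fitted in edgeR with a term for libraries numbered 30 or above. The p was then 0.0586 for Rn7sk, 0.0371 for Rpph1 and 0.0203 for Rmrp, against 0.0381, 0.0334 and 0.0173 without the term. Adjusted p with the term was 0.143, 0.102 and 0.0653. The part of library number in the ZT17 means alone was not tested. In control retinas Rn7sk averaged 325723 ± 98017 (SD, n = 5) at ZT17 and 213656 to 226976 at the other time points. The 5 control libraries at ZT17 stood at 356878, 181861, 415280, 272205 and 402390, so 1 of them lay below the mean of every other time point. Control Rmrp at ZT17 ranged from 7014 to 57689 over the same 5 libraries. In diabetic retinas Rn7sk averaged 284028 ± 61721 (n = 4) at ZT17 and 190015 ± 49520 (n = 5) at ZT9, the lowest mean. The mean at ZT13 was 325551 ± 253021 (n = 4), from 141216 to 696907, and 201765 ± 63970 (n = 3) without replicate 5. Leaving out that library moved the ZT13 mean of Rmrp from 33402 to 16152, of Rpph1 from 82974 to 46079, of Gm26917 from 437420 to 351482 and of Gm42418 from 88679 to 59784.

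The ribosomal loci spread less within groups than the small RNAs did, with a pooled SD on the log2 scale of 0.27 for Gm26917 and 0.35 for Gm42418 against 0.43 to 0.80. In controls Gm26917 averaged 287595 ± 21251 (SD, n = 6) at ZT5, 290675 ± 61818 at ZT9 and 304255 ± 42759 at ZT13 (n = 5 each), neighbours that did not differ beyond their spread. It averaged 380534 ± 72038 (n = 5) at ZT17, 360893 ± 46299 (n = 4) at ZT21 and 330899 ± 38357 (n = 5) at ZT1. Gm42418 ran from 51531 ± 12147 (n = 5) at ZT9 to 70643 ± 22136 (n = 5) at ZT17. In diabetic retinas Gm26917 averaged 328907 ± 64663 (n = 5) at ZT9, 418160 ± 136822 (n = 4) at ZT17 and 395554 ± 36042 (n = 5) at ZT21.

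Over both genotypes, 25.9% of genes changed with time of day by edgeR at an adjusted p under 0.05, and 0 members did. Their edgeR p was 0.0173 to 0.0381, and the adjusted p was 0.0619 for Rmrp, 0.0623 for Gm26917, 0.0772 for Gm42418, 0.1 for Rpph1 and 0.111 for Rn7sk. These values sat close to the threshold and moved with single libraries. All 5 members passed without diabetic ZT13 replicate 3, and 4 passed without control ZT9 replicate 4 or diabetic ZT13 replicate 5. Without diabetic ZT17 replicate 3 the adjusted p rose to 0.165 to 0.294. Without a filter on low counts 3 members passed (Rmrp, Gm26917 and Gm42418), and DESeq2 called Gm26917 (adjusted p = 0.0295). With replicate number as a block in edgeR, Rmrp (adjusted p = 0.0217) and Rpph1 (0.03) passed.

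For rhythm within a genotype, the empirical JTK test (unadjusted p under 0.05 from 200000 shuffles, and a minimum fold between the highest and lowest library) called 2 members in controls, where it called 21% of all genes. With adjusted p it called 0 members and 8.23% of genes. Gm26917 had p = 0.00457 by this permutation test (0.0518 after adjustment over all genes), an acrophase of ZT19.4 and a relative amplitude of 14.7%, and was called in 30 of 30 fits with 1 library left out, but not without all replicates numbered 3 (permutation p = 0.0722). Gm42418 had a permutation p of 0.0372 (adjusted 0.188), an acrophase of ZT19.6 and an amplitude of 16.04%, and was called in 20 of 30. Without control ZT9 replicate 3, the library with its lowest count, p was 0.0802 by permutation. Rn7sk, Rpph1 and Rmrp had permutation p of 0.524, 0.197 and 0.331.

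In diabetic retinas the same test called 0 members and 23.9% of genes (10.3% with adjusted p), with permutation p of 0.0831 to 0.294 over the members. It also called 0 without diabetic ZT13 replicate 5. A cosine fitted to the diabetic libraries in edgeR called Gm42418 alone (adjusted p = 0.0203), and the call was lost without that library (0.153). The loci are not thereby shown to differ in rhythm. The difference in rhythm between genotypes had edgeR p of 0.25 for Gm26917 and 0.0302 for Gm42418, adjusted p of 1 for all 5 members, and 0% of genes were called.

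**Figure D5:**
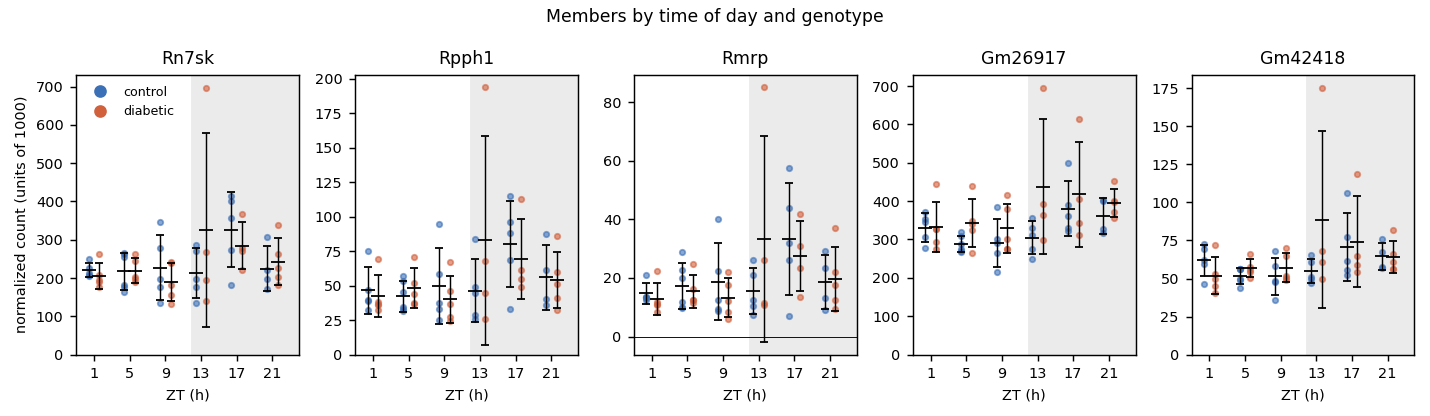
Normalized counts, in units of 1000, of each member by ZT in control (blue) and diabetic (red) libraries, each point 1 library, with the mean and SD as bars and the dark phase shaded. ZT17 is high in controls, and the wide bar at diabetic ZT13 is set by replicate 5, whose SD for Rmrp (35213) exceeds the mean (33402), so that the bar crosses 0.

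Of the partners of these RNAs, few genes were called between genotypes, against the 2.99% of all genes given above. Of 14 genes of the 7SK particle and P-TEFb, 1 rose and 0 fell in diabetic libraries (median log2 difference 0.02, where the median of all expressed genes was 0.00). The one that rose was Hexim1, the protein that inhibits P-TEFb once bound to 7SK. It averaged 621 ± 107 (SD, n = 30) normalized counts in control and 725 ± 111 (n = 28) in diabetic libraries, a log2 difference of 0.22 ± 0.06 (SE) with an adjusted p of 0.0244 by edgeR. It was called whichever single library was left out (0.011 to 0.0421), and with the set of library numbers, 1 to 29 or 30 to 58, as a term (0.0236), but not within either set alone. Its abundant neighbours on the list did not pass, with log2 differences of 0.02 for both Hnrnpa2b1 and Hnrnpr, RNA-binding proteins found with 7SK.

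Among the enzymes that use or make these RNAs, 0 of 11 RNase P and RNase MRP proteins were called (median -0.04), with Rpp14 at -0.07 and Pop4 at -0.00. Of 26 genes of RNA polymerase III and its factors 0 were called (median -0.01), with Bdp1, a subunit of its initiation factor TFIIIB, at -0.02. Of 13 genes of RNA polymerase I and its factors, 1 fell and 0 rose (median -0.02). That gene was Ttf1, which ends transcription of the ribosomal repeat, with 419 ± 34.6 (SD, n = 30) in control and 387 ± 34.7 (n = 28) in diabetic libraries. Its log2 difference was -0.12 ± 0.03 (SE) with an edgeR adjusted p of 0.0388, which was lost (up to 0.0635) in 14 of the 58 fits with 1 library left out. The call was also lost with replicate number as a block. Ubtf, the main activator of the ribosomal promoter, was at -0.03.

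Of 13 expressed factors of precursor ribosomal RNA processing 0 were called (median 0.00), with the nucleolar proteins Ncl at 0.00 and Npm1 at -0.05. None of 17 expressed structural small RNAs besides the members was called (median 0.01), with Scarna2 at -0.07 and Scarna13 at -0.04. Of 2 mitochondrial ribosomal RNAs neither was called. mt-Rnr1 averaged 969 ± 1287 (SD, n = 30) in control and 1731 ± 2853 (n = 28) in diabetic libraries, a log2 difference of 0.85 ± 0.34 (SE) with an edgeR adjusted p of 0.19. Its SD exceeded its mean in both genotypes, and the difference was 0.47 without diabetic ZT13 replicate 5. Without control ZT13 replicate 3 it was 1.22 and passed (edgeR adjusted p = 0.0178). Of 4 expressed genes on the list of further rRNA-like or rRNA-sharing genes 0 were called over all time points (median 0.06), and Camk1d was called at ZT17 alone. Of 6 nuclear long non-coding RNAs 0 were called (median 0.03), with Malat1 at -0.01 and Snhg11 at 0.04.

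With time of day, the lists lay on both sides of the 25.9% of all genes called by edgeR. Above it were 9 of 13 genes of RNA polymerase I and its factors and 8 of 13 processing factors. Close to it were 7 of 26 genes of RNA polymerase III and 3 of 11 RNase P and RNase MRP proteins, and below it 2 of 14 genes of the 7SK particle. Hexim1 was among the called genes (edgeR adjusted p = 3.6e-05), as were Pop4 (0.000619), Ubtf (0.00139) and Ttf1 (0.0015). Of the 17 other structural small RNAs 3 changed, and the ribosomal and small RNA members, as given above, did not pass.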

How the data were processed

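Gene counts of 58 mouse retina libraries were analysed, 30 control and 28 diabetic. Per the labels and the methods of the study, the authors checked reads with FastQC, aligned them to the GRCm38.p5 genome with STAR 2.7.4a, and used HTSeq 0.11.1 to count reads over the genes of Gencode M15. The deposited values are whole-number counts, not normalized, with 1 column per library that its title assigns to genotype, time point and replicate. Gencode M15 was not used here, and places and sequences came from Gencode M21 and RefSeq on GRCm38. Whether multi-mapped or antisense reads entered the counts, and the strand setting, are not given in the sources used here.

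The 5 genes, the lists of partner genes and the tests were chosen with earlier results of these data known. Normalized counts are counts over DESeq2 1.42.0 size factors. Genotypes and time of day were compared with edgeR 4.0.16 (TMM factors, quasi-likelihood test, Benjamini-Hochberg adjustment over 19120 genes with a median above 4 normalized counts), in 1 group per genotype or 12 groups. Rhythm used the empirical JTK test, rewritten in Python 3.11.15 with 6 phases and 5 widths, and the difference in rhythm an edgeR interaction with a cosine of 24 h. Relations used 100000 permutations. Named were the members, the 2 most abundant genes and every gene called between genotypes in each pathway list, expressed genes of the short RNA, rRNA-like and mitochondrial lists, and the 3 genes most like each member, and Neat1 was added after its value was seen. A marker list and 1 gene of these are not reported here. On simulated counts for 19120 genes, edgeR recovered 99% of 200 genes changed 2-fold over all time points and 77% at ZT13. The changed genes were drawn at random from the expressed ones, without an outlying library or a step with library number. The rates therefore do not give the power for the members, whose spread was wider than that of most abundant genes. Depth was 7773117 to 22147398 counts per library, so sampling error was small for the members beside the spread between libraries. Other scalings, filters, tools, a replicate block, library numbers and leaving out each library were tried.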

Additional observations from a re-analysis of the deposited data

Results flagged for a closer look

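In 5 of the 60 combinations of member, genotype and time point, the highest library stood far from the others of its group by Dixon's criterion. The lowest stood apart in 0. The criterion marks about 1 in 20 groups by chance, but these genes were chosen with outlying libraries known, so the count is a description and not a test. In diabetic ZT1 replicate 4, Rpph1 was at 69561 normalized counts, where the next library had 37931, and Rmrp at 22307, where the next had 11817. In control ZT1 replicate 4, Rmrp was at 21132 against 13662. Gm42418 was at 175362 in diabetic ZT13 replicate 5, where the next library had 68337, and at 119001 in diabetic ZT17 replicate 3, against 64976. In both replicates numbered 4 at ZT1 the genes concerned were small RNAs, and these libraries belong to numbers 31 to 58, in which the small RNAs were higher in most libraries. The part of library order in them was not tested.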

How the results depend on the processing

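No member was called between genotypes, over all time points or at any of them, or in the difference of rhythm, under any alternative or with any of the 58 libraries left out. The members changing with time of day (0) became 3 without a filter on low counts, 2 with the replicate block (Rmrp, adjusted p = 0.0217, and Rpph1, 0.03, by edgeR) and 1 by DESeq2, and 0 to 5 with single libraries left out. The 2 members rhythmic in controls became 0 with adjusted p or without replicates numbered 3, 1 within libraries 1 to 29 and 1 within 30 to 58, and 1 to 2 with single libraries left out. In diabetic libraries 0 became 1 with the replicate block or after subtracting the means of libraries 1 to 29 and 30 to 58, 5 by a cosine fit in edgeR at unadjusted p, and 0 to 1 with single libraries left out. Without diabetic ZT13 replicate 5 that cosine fit kept p under 0.05 for Gm26917 (0.041) and Gm42418 (0.0369) only. The 2 called list genes became 1 without a filter, 1 with the replicate block, 0 within libraries 1 to 29, 1 within 30 to 58 and 1 to 2 with single libraries left out. The cause was not tested. The alternatives by library number and without replicates numbered 3 were chosen after seeing the data. Of 2385 member log2 differences under alternatives, 90 had the opposite sign to the reported value. Most of the 2385 left out 1 library, often one outside the time point compared, so this count says little about stability. Rmrp over all time points kept its sign in 29 of 58 fits with 1 library left out. Leaving out single libraries, r was 0.911 to 0.950 for pairs within a block and 0.391 to 0.701 between blocks. Over 26 pairs of same-numbered libraries at a time point, deviations correlated with r of -0.443 to 0.807 (median 0.261), 19 were above 0.1, and 26 of 52 libraries correlated best with their own number. Each library was compared with the 4 to 6 libraries of the other genotype at its time point. This is a hint of shared structure in the data, but as not every pair was above 0.1 the numbers were not taken to pair the animals. The main fits leave such structure out, and the calls for time of day changed with the block, as given above. With the replicate block Hexim1 was still called and Ttf1 was not. Depth limited genes near 4 normalized counts, such as Terc and Vaultrc5, more than the members.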
